A study of Mus musculus with 6 samples.

Results

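The genes described here encode the nuclear subunits of the mitochondrial respiratory chain and of the ATP synthase. They were taken from the deposited count table by gene name, as Nduf genes of the a, b, c, s and v series (complex I), Sdha to Sdhd (complex II), Uqcr genes (complex III), Cox4 to Cox8 genes (complex IV) and Atp5 genes (complex V), without names that contain "-ps". The patterns matched 89 of the 55421 genes in the table, of which 40 belonged to complex I, 4 to complex II, 8 to complex III, 19 to complex IV and 18 to complex V. Of these, 83 passed the filter on low counts and were tested. The patterns also took 4 processed pseudogenes (Ndufs6b, Ndufb4c, Cox6c2 and Ndufa11b) and missed some chain proteins with other names, such as Ndufab1, Cyc1 and Cycs.

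RNA was sequenced from bone marrow leukemia cells of C57BL/6 mice. The leukemias had been induced with a retrovirus carrying AE9a (AML1-ETO9a), which is a truncated AML1-ETO oncoprotein, in hematopoietic stem and progenitor cells of Ddit4+/+ or Ddit4-/- donors. GFP+ leukemia cells were then passed to irradiated recipients. The AE9a transgene is present in both groups, so no cells without the oncogene are included. The labels state that leukemia cells were maintained in IMDM medium with fetal bovine serum, and do not state whether the 3 libraries of wild-type leukemia (AE9a-Ddit4+/+) and the 3 of knockout leukemia (AE9a-Ddit4-/-) each came from a leukemia of its own. In the study's primary transplants only 2 recipients of knockout cells developed leukemia. The 3 knockout libraries may therefore not stem from 3 separate primary leukemias. Here n is the number of libraries, and p values measure the spread between libraries only. Ages of the mice are not given in the labels. Ddit4, a stress-induced inhibitor of mTOR signaling, had 228, 161 and 342 CPM (counts per 1000000 counts of the library) in wild-type libraries 1, 2 and 3, against 84.9, 77.7 and 85.9 CPM in knockout libraries 1, 2 and 3 (log2 fold change -1.56, SE 0.28, edgeR adjusted p 0.0063). Counts for Ddit4 thus remained in the knockout, and which part of the gene its allele lacks is not given in the sources used here. For the protein, the study reports a western blot in which DDIT4 was absent from AE9a-Ddit4-/- leukemia cells.

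The respiratory chain lies in the inner mitochondrial membrane. Complex I takes electrons from NADH and complex II takes them from succinate, complex III passes them from coenzyme Q to cytochrome c, and complex IV hands them to oxygen. Complexes I, III and IV pump protons, and complex V, the ATP synthase, uses the proton gradient to make ATP. Complexes I, III, IV and V are assembled from products of nuclear genes, which are those described here, and of the mitochondrial genome, whereas complex II is entirely nuclear. Leukemia stem cells of the myeloid lineage are known for a strong dependence on oxidative phosphorylation.

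Promoters of such genes are known targets of NRF1, of GABP (an ETS factor) and of YY1. RefSeq promoter windows on GRCm38.p6, from 250 bases before to 50 bases after the transcript start, were available for 65 of the 80 protein-coding members tested. In complex IV, Cox6a1 fell, and of Cox6b1 and Cox6b2, the somatic and the testis form of the same subunit, Cox6b2 rose. No window was available for Cox4i2, which also rose. Windows are shown for Cox6a1, Cox6b1 and Cox6b2. They are written 5′ to 3′ on the strand of the gene, with capitals for matches to the letters searched, which were GCGCATG (a part of the NRF1 motif), CCGGAAG (GABP) and AAGATGG (YY1), on either strand.
Cox6a1: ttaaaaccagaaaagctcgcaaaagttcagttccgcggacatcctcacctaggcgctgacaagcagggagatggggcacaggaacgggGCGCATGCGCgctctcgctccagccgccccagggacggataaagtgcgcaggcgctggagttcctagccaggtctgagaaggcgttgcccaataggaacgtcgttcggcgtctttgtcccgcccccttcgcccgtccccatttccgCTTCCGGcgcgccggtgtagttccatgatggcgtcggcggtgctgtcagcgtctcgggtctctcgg
Cox6b1: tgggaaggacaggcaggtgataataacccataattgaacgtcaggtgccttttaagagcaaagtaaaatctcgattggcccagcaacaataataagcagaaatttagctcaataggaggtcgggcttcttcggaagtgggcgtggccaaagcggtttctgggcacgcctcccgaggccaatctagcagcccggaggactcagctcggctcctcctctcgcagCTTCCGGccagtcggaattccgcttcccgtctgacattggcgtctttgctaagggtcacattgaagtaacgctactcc
Cox6b2: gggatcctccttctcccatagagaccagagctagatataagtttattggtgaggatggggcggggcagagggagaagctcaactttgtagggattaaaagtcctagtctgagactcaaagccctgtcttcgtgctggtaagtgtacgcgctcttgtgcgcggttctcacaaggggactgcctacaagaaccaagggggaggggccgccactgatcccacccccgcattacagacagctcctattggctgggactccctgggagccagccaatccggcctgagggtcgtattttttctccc
The windows lie on the minus strand at chr5:115348909-115349208 (Cox6a1), chr7:30626065-30626364 (Cox6b1) and chr7:4753045-4753344 (Cox6b2). In the Cox6a1 window, NRF1 letters occurred on both strands, with overlapping matches that began 162 and 159 bases before the start, and GABP letters began 16 bases before it. The Cox6b1 window held GABP letters from 28 bases before the start. The Cox6b2 window held none of the letters searched. It had 10 CpG dinucleotides, against 32 in Cox6a1 and 17 in Cox6b1. Among all members with a window, 20% held the NRF1 letters, 26.2% the GABP letters and 15.4% the YY1 letters. The shares were 4.41%, 9.93% and 7.28% over the windows of all 27025 genes listed, and 7.30%, 18.7% and 8.14% over the 11517 genes tested that had a window.

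Most members had somewhat lower levels in knockout than in wild-type libraries, and few of these differences passed the test. The median log2 fold change (AE9a-Ddit4-/- over AE9a-Ddit4+/+) over the 83 members tested was -0.42, which is 1.34-fold lower, and 70 of them were fitted below zero. The medians were 0.04 over all 18375 genes tested and -0.17 over the 8218 genes with a mean above a log2 CPM of 4. By edgeR's quasi-likelihood test with an adjusted p below 0.05, 12 members were lower (14.5%, against 10.7% of all genes tested) and 2 were higher (2.41%, against 19.4%). In either direction 16.9% of members and 30.1% of all genes were called. The share of members called lower is thus near that of all genes, and below the 17% among the genes above a log2 CPM of 4. Libraries of the 2 groups did not overlap for 33 members that were lower in the knockout (39.8%, against 22.2% of all genes) and for 3 that were higher (3.61%, against 27.9%). Among the genes above a log2 CPM of 4, these shares were 30.8% lower and 21.3% higher. Of the 33, 21 were not called. The count of 12 depended on single libraries. It was 3, 7 and 4 when knockout library 1, 2 or 3 was left out, and 2, 16 and 2 when wild-type library 1, 2 or 3 was left out. It was 19 with DESeq2.

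**Figure D1:**
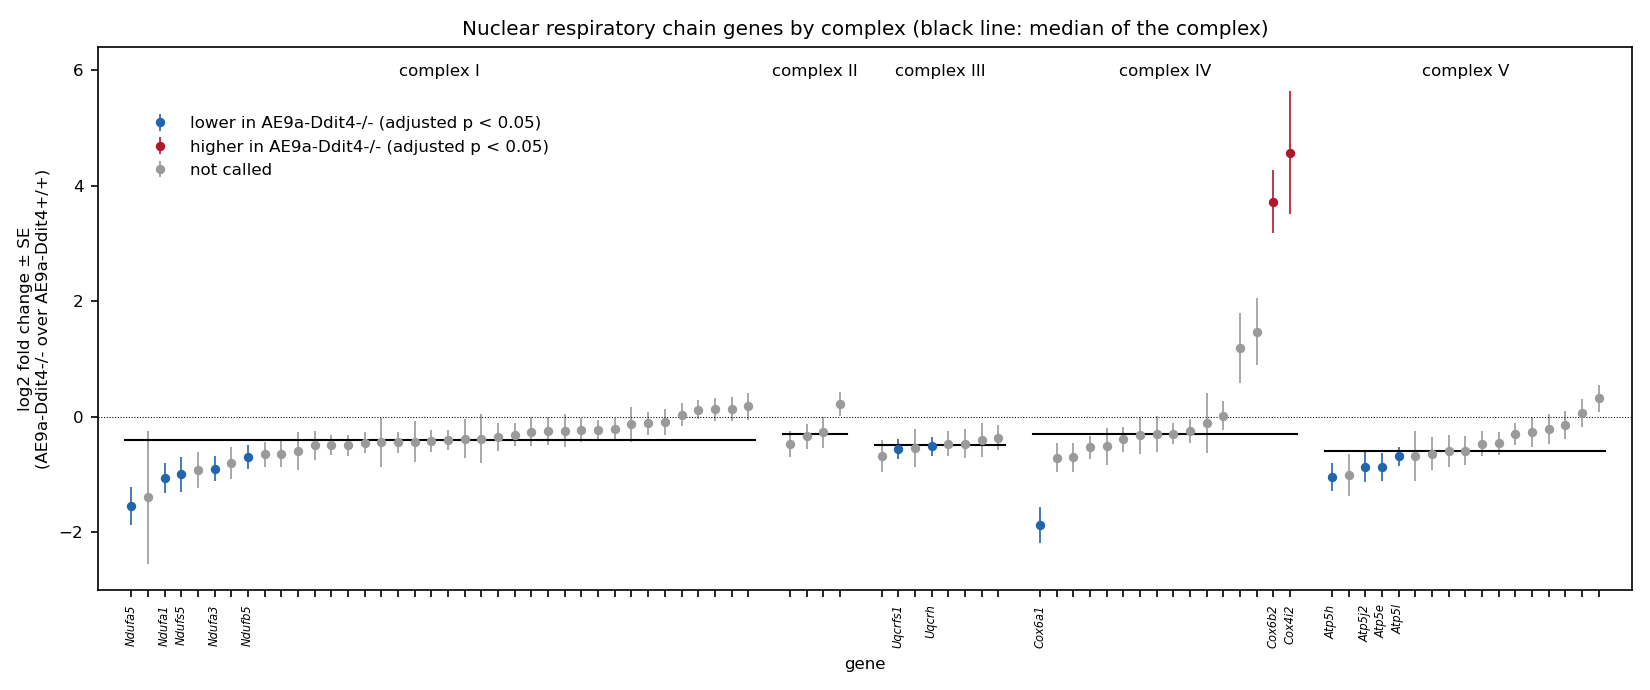
Log2 fold change (AE9a-Ddit4-/- over AE9a-Ddit4+/+, y axis) with its SE for each of the 83 members tested (x axis, with names for those called), ordered within complexes I to V. Black lines give the median of each complex, which ran from -0.59 in complex V to -0.30 in complex IV. The 12 members called lower are blue and the 2 called higher (Cox6b2 and Cox4i2) are red.

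The spread within the groups was wide compared with this shift. Summed over all members, the level was 10554, 7938 and 9363 CPM in wild-type libraries 1, 2 and 3, and 5446, 7982 and 7236 CPM in knockout libraries 1, 2 and 3. The groups overlapped, since knockout library 2 lay above wild-type library 2. Library 1 of the knockout had the lowest value of all 6 libraries for 68 of the 83 members, and wild-type library 1 had the highest for 50. Relative to the mean of the wild-type libraries, the median member stood at a log2 difference of -0.76, -0.21 and -0.30 in knockout libraries 1, 2 and 3, and of 0.17, -0.26 and 0.03 in wild-type libraries 1, 2 and 3. Without knockout library 1 the median log2 fold change was -0.27, and without knockout library 2 it was -0.55. Without knockout library 1 the medians of complexes I, II, III and IV were -0.24, -0.17, -0.29 and -0.079, against -0.41, -0.31, -0.49 and -0.30 with all libraries. Without knockout library 2 that of complex II was -0.47, and without wild-type library 1 those of complexes II and V were -0.13 and -0.39. In bulk RNA a smaller share of cells with a high level and less RNA per cell cannot be told apart.

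Complex I was represented by 38 tested members, with a median log2 fold change of -0.41. Of these, 5 fell (13.2%, against 10.7% of all genes tested), none rose (against 19.4%) and 33 were not called. For 18 the groups did not overlap, all lower in the knockout (47.4%, against 22.2% of all genes tested). The largest fall was that of Ndufa5 (chr6:24518666-24528013, minus strand), an accessory subunit of the arm that reaches into the matrix. It had 19.6, 12.6 and 24.4 CPM in wild-type libraries 1, 2 and 3, against 5.54, 6.88 and 7.0 CPM in knockout libraries 1, 2 and 3 (log2 fold change -1.54, SE 0.33, adjusted p 0.011). Each knockout library lay below each wild-type library, and the call held with any 1 library left out (adjusted p 0.0063 to 0.044). Ndufa1, an X-linked accessory subunit of the membrane arm, had 34.1, 27.8 and 40.1 CPM in wild-type libraries 1, 2 and 3, against 12.6, 19.7 and 16.5 CPM in knockout libraries 1, 2 and 3 (log2 fold change -1.07, SE 0.26, adjusted p 0.020). Ndufs5, an accessory subunit on the side of the intermembrane space, had 31.5, 20.5 and 21.9 CPM in wild-type libraries 1, 2 and 3, against 9.24, 12.2 and 15.4 CPM in knockout libraries 1, 2 and 3 (log2 fold change -1.0, SE 0.30, adjusted p 0.040). For both genes the groups did not overlap. The accessory subunits Ndufa3 (log2 fold change -0.90, adjusted p 0.018) and Ndufb5 (-0.70, adjusted p 0.043) complete the count. Apart from Ndufa5, these calls were each lost without wild-type library 1 and without wild-type library 3.

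The subunits of complex I differ in role. The 7 nuclear core subunits, which carry the flavin and the iron-sulfur clusters, had a median log2 fold change of -0.12, and none was called. The 10 beta subunits tested, which sit in the distal membrane arm, had a median of -0.45 and were all fitted below zero, with 1 called lower. The 18 other accessory subunits had a median of -0.47, with 4 called lower. Whether core and accessory subunits differ was not tested. Ndufa4 and 2 pseudogenes were left out of this division. Counted per kilobase of exon, Ndufb9 had the highest level of the complex I members above a log2 CPM of 4 in both genotypes, with 105 per kilobase in the wild type and 88.2 in the knockout (log2 fold change -0.25, SE 0.24, adjusted p 0.46). Ndufb1-ps, which the rule leaves out for its name, had a log2 fold change of -0.80 (SE 0.34, adjusted p 0.11).

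Complex II, which also serves the citrate cycle as succinate dehydrogenase, showed no called difference among its 4 genes by edgeR or DESeq2. No member reached an unadjusted p below 0.05, and the groups overlapped for each gene. Sdha, the flavoprotein that oxidizes succinate, had 273, 154 and 214 CPM in wild-type libraries 1, 2 and 3, against 138, 217 and 176 CPM in knockout libraries 1, 2 and 3 (log2 fold change -0.27, SE 0.27, adjusted p 0.48). The log2 fold change was -0.34 (SE 0.21) for Sdhb, the iron-sulfur subunit. The membrane anchors Sdhc and Sdhd stood at 0.22 (SE 0.21) and -0.47 (SE 0.23).

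All 8 genes of complex III were fitted below zero (median log2 fold change -0.49), and 2 of them fell (25%, against 10.7% of all genes tested). Uqcrfs1, the Rieske iron-sulfur protein, had 155, 138 and 142 CPM in wild-type libraries 1, 2 and 3, against 87.1, 113 and 95.2 CPM in knockout libraries 1, 2 and 3 (log2 fold change -0.56, SE 0.18, adjusted p 0.048). Uqcrh, the hinge protein near cytochrome c1, had 96.1, 89.8 and 97.5 CPM in wild-type libraries 1, 2 and 3, against 69.3, 65.3 and 63.8 CPM in knockout libraries 1, 2 and 3 (log2 fold change -0.51, SE 0.16, adjusted p 0.046). The groups were apart for both genes, but the changes were small and near the threshold. The call of Uqcrh was lost when any 1 library was left out, and that of Uqcrfs1 was kept only without knockout library 2. The remaining 6 genes ranged from -0.68 for Uqcr11 to -0.36 for Uqcrc2 and were not called.

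Complex IV held the members that moved furthest in either direction. Of its 16 tested genes 1 fell (6.25%, against 10.7% of all genes tested) and 2 rose (12.5%, against 19.4%). The median log2 fold change was -0.30. Cox6a1 encodes the widely expressed form of a small subunit that in heart and skeletal muscle is replaced by Cox6a2. It lies at chr5:115345642-115348981 on the minus strand (GRCm38, GENCODE M21) and had 408, 244 and 349 CPM in wild-type libraries 1, 2 and 3, against 57.5, 106 and 108 CPM in knockout libraries 1, 2 and 3 (log2 fold change -1.88, SE 0.31, adjusted p 0.0046). The highest knockout library was far below the lowest wild-type library, and the call held with any 1 library left out (adjusted p 0.0041 to 0.017). Per kilobase of exon, Cox6a1 was the most abundant complex IV gene in the wild type (476), while in the knockout it stood at 129 and Cox8a at 200.

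Cox6b2 and Cox4i2, both tissue-limited forms, rose. Cox6b2 is known from testis and takes the place of Cox6b1, a subunit on the side where cytochrome c docks. It lies at chr7:4751792-4753094 on the minus strand, and its level was 1.08, 1.65 and 0.634 CPM in wild-type libraries 1, 2 and 3, against 7.84, 20.4 and 16.3 CPM in knockout libraries 1, 2 and 3 (log2 fold change 3.72, SE 0.54, adjusted p 0.0029). Every knockout library was above every wild-type library, and the call held with any 1 library left out (adjusted p 0.0038 to 0.014). Cox4i2 (chr2:152754173-152765037, plus strand), a form of the largest nuclear subunit known from lung and from cells under low oxygen, had 9, 0 and 10 counts in wild-type libraries 1, 2 and 3, all under the detection limit of 12 counts per library. In knockout libraries 1, 2 and 3 it had 1.08, 2.96 and 3.10 CPM. The mean of these, 2.38 CPM, was 12.9 times the mean detection limit of the wild-type libraries (0.184 CPM). The knockout mean was thus at least 12.9-fold above the wild type (edgeR adjusted p 0.016, and 0.0092 to 0.0496 with any 1 library left out). Even in the knockout, its level was low beside that of Cox4i1, which had 132 to 262 CPM there.

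The partner forms did not rise. Cox6b1 had 106, 78.6 and 102 CPM in wild-type libraries 1, 2 and 3, against 40.7, 70.9 and 63.0 CPM in knockout libraries 1, 2 and 3 (log2 fold change -0.71, SE 0.25, adjusted p 0.070), so the groups were apart without a call. Per kilobase of exon, Cox6b2 made up 0.647%, 1.32% and 0.397% of Cox6b1 and Cox6b2 together in wild-type libraries 1, 2 and 3, and 11%, 15.5% and 14.2% in knockout libraries 1, 2 and 3. Even in knockout cells the somatic form therefore accounted for most transcripts of the pair. Cox4i1 had a log2 fold change of -0.32 (SE 0.32, adjusted p 0.48), and Cox4i2 made up 2.04% ± 0.413 of the Cox4i1 and Cox4i2 sum in knockout libraries (SD, n = 3).

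**Figure D2:**
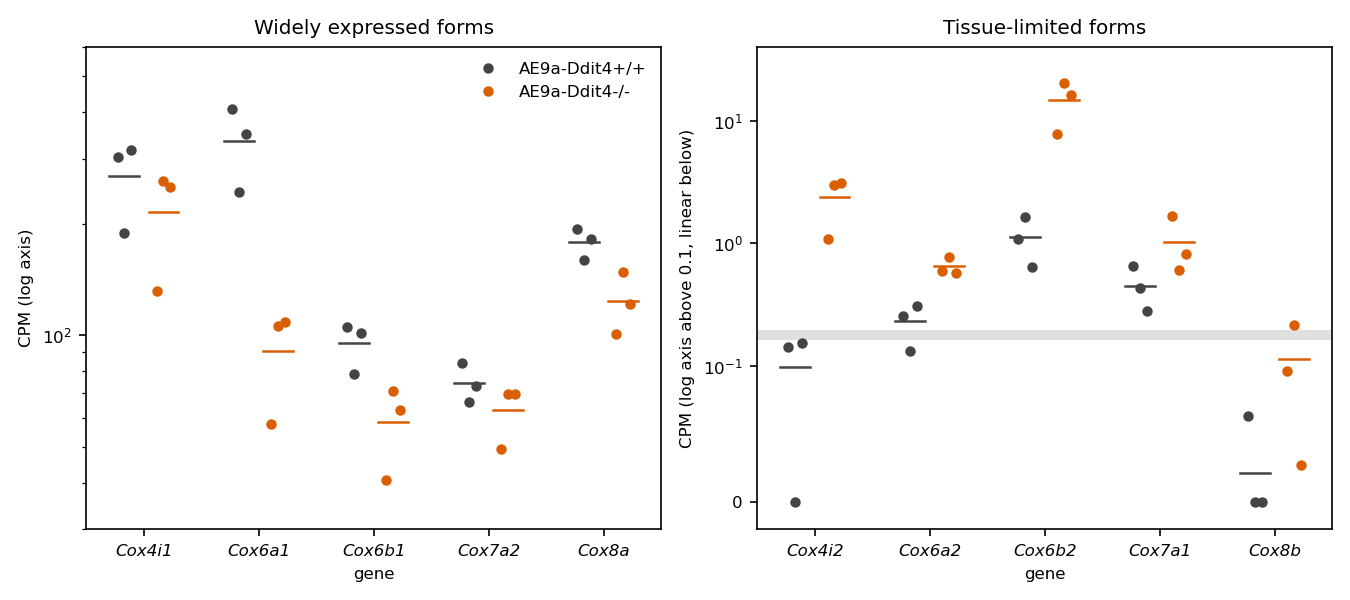
CPM in each library (points) and the mean of 3 libraries (lines) for widely expressed forms of complex IV subunits (left, log axis) and for tissue-limited forms (right, log axis above 0.1 and linear below). The grey band marks the detection limit of 12 counts (0.163 to 0.198 CPM). For Cox6a1 the 3 AE9a-Ddit4-/- libraries lie below the 3 AE9a-Ddit4+/+ libraries, and for Cox6b2 and Cox4i2 they lie above.

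Other tissue-limited forms were scarce. Cox6a2, the muscle form that pairs with Cox6a1, had 0.253, 0.133 and 0.309 CPM in wild-type libraries 1, 2 and 3, against 0.594, 0.774 and 0.571 CPM in knockout libraries 1, 2 and 3 (log2 fold change 1.47, SE 0.58, adjusted p 0.093). The groups were apart, but the gene was not called. Cox7a1, another muscle form, had a log2 fold change of 1.19 (SE 0.61, adjusted p 0.18). The fitted log2 fold changes of the 4 tissue-limited forms tested were all above zero. Wild-type libraries 1, 2 and 3 had 9, 0 and 10 counts for Cox4i2, and 16, 9 and 20 for Cox6a2. These 2 genes passed the low-count filter only through their knockout libraries. A gene this low in the wild type could hardly be tested unless higher in the knockout, so the shared direction is no support for a rise. Of the 10 widely expressed forms, 9 were below zero, with a median of -0.42. Of the widely expressed forms, Cox8a (-0.53, SE 0.20, adjusted p 0.081), the X-linked Cox7b (-0.52, SE 0.32, adjusted p 0.26) and Cox7a2 (-0.25, SE 0.21, adjusted p 0.41) were not called. Cox7a2l, which is not counted among these forms and is known to link complexes III and IV, was not called either (-0.39, SE 0.21, adjusted p 0.20). Ndufa4, now regarded as a complex IV subunit despite its name, stood at -0.42 (SE 0.19, adjusted p 0.14). Cox7b2, Cox8c and a duplicate entry for Atp5o had no counts in any library. Ndufa4l2 and Ndufa11b stayed under 12 counts in each library, and Cox8b, at most 0.214 CPM, was removed by the filter as well.

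Complex V showed the lowest median of the 5 complexes (log2 fold change -0.59), except without wild-type library 1, where complex III was lower (-0.44). Of the 17 complex V genes tested, 4 fell (23.5%, against 10.7% of all genes tested). Atp5h, subunit d of the peripheral stalk, had 203, 137 and 180 CPM in wild-type libraries 1, 2 and 3, against 64.8, 80.9 and 106 CPM in knockout libraries 1, 2 and 3 (log2 fold change -1.04, SE 0.25, adjusted p 0.018). Atp5e, the epsilon subunit of the catalytic F1 part, had 96.0, 62 and 91.4 CPM in wild-type libraries 1, 2 and 3, against 36.1, 49.4 and 50.6 CPM in knockout libraries 1, 2 and 3 (log2 fold change -0.87, SE 0.24, adjusted p 0.031). Atp5j2, subunit f of the membrane part, had 115, 65.5 and 91.0 CPM in wild-type libraries 1, 2 and 3, against 39.5, 54.3 and 54.2 CPM in knockout libraries 1, 2 and 3 (log2 fold change -0.87, SE 0.26, adjusted p 0.038). In each of these genes the groups were apart. Atp5l, subunit g of the membrane part, completes the count (log2 fold change -0.68, adjusted p 0.018). All 4 calls were lost without knockout library 1, without wild-type library 1 and without wild-type library 3.

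Within complex V, the alpha and beta subunits of F1 had the highest levels per kilobase. Atp5a1, the alpha subunit, had 340 per kilobase in the wild type and 247 in the knockout (log2 fold change -0.46, SE 0.20, adjusted p 0.12), and Atp5b, the beta subunit with the catalytic sites, had 263 and 168 (-0.64, SE 0.29, adjusted p 0.13). Neither was called. The ring of c subunits is encoded by Atp5g1, Atp5g2 and Atp5g3, which give the same mature protein. Atp5g1 had 147, 80.7 and 113 CPM in wild-type libraries 1, 2 and 3, against 31.1, 71.4 and 67.1 CPM in knockout libraries 1, 2 and 3 (log2 fold change -1.01, SE 0.36, adjusted p 0.072), so the groups were apart without a call. Atp5g2 (0.06, SE 0.24) and Atp5g3 (-0.14, SE 0.24) lay close to zero, and the fitted sign of each flipped under other settings. Without division by exon length, Atp5g1 gave 26.0%, 20.8% and 22.5% of the summed CPM of these genes in wild-type libraries 1, 2 and 3. Its shares were 10.6%, 14.8% and 14.1% in knockout libraries 1, 2 and 3. Per kilobase of exon, the wild-type mean was 23.1 for Atp5g1, against 103 for Atp5g2 and 91.5 for Atp5g3. Atp5o, the subunit that joins the stalk to F1, had the highest fitted value in complex V (log2 fold change 0.32, SE 0.23, adjusted p 0.34).

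The subunits encoded by the mitochondrial genome differed in the opposite direction. Of the 13 genes, 11 rose in knockout libraries (84.6%, against 19.4% of all genes tested), and the median log2 fold change was 1.19. Their summed level was 55737, 73313 and 47193 CPM in wild-type libraries 1, 2 and 3, against 105688, 171339 and 117060 CPM in knockout libraries 1, 2 and 3. mt-Nd1, a core subunit of complex I, had a log2 fold change of 1.43 (SE 0.29, adjusted p 0.0093), and mt-Co3 of complex IV had 1.35 (SE 0.23, adjusted p 0.0046). mt-Nd3 (0.98, adjusted p 0.055) and mt-Cytb (0.90, adjusted p 0.085) were not called. The ratio of mitochondrially to nuclear encoded subunits was 5.28, 9.24 and 5.04 in wild-type libraries 1, 2 and 3, and 19.4, 21.5 and 16.2 in knockout libraries 1, 2 and 3. The number of mitochondrially encoded genes called was 6 without knockout library 2, 5 without wild-type library 1 and 4 without wild-type library 3. With mitochondrially encoded genes removed before scaling, the median of the nuclear members was -0.40 and 10 were called lower.

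**Figure D3:**
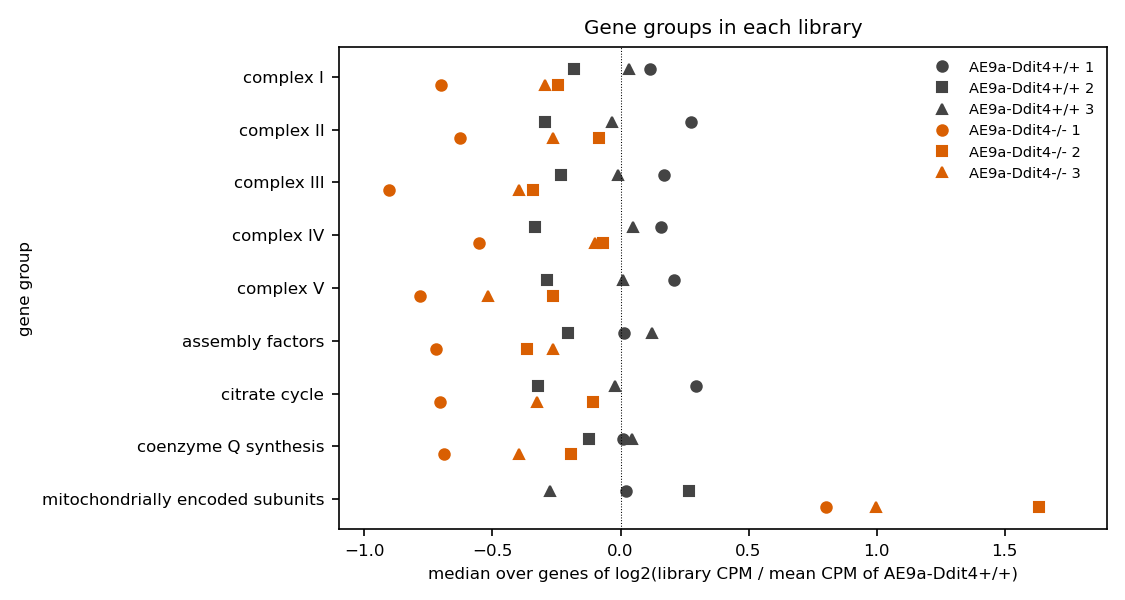
Median over the genes of a group of the log2 ratio of a library's CPM to the mean of the AE9a-Ddit4+/+ libraries (x axis), for each of the 6 libraries and 9 gene groups (y axis). AE9a-Ddit4-/- library 1 has the lowest value in each group of nuclear genes, while the 3 AE9a-Ddit4-/- libraries lie above the AE9a-Ddit4+/+ libraries for the mitochondrially encoded subunits.

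Other nuclear genes of the pathway gave medians between -0.57 and -0.23, where that of the members was -0.42. Among 52 tested assembly factors 5 fell (Dmac1, Cox11, Ndufaf5, Cox15 and Ndufaf7) and 1 rose (Cmc2), with a median log2 fold change of -0.46. The share called lower, 9.62%, is close to the 10.7% of all genes tested, and the share called higher, 1.92%, compares with 19.4%. Dmac1, which assists the assembly of the distal arm of complex I, had a log2 fold change of -1.21 (SE 0.22, adjusted p 0.0064), and Cox11, a copper chaperone of complex IV, had -1.28 (SE 0.30, adjusted p 0.016), although the latter call was lost without knockout library 1 or 2 or wild-type library 3. Among 17 citrate cycle and pyruvate dehydrogenase genes 4 fell (Cs, Mdh2, Dlst and Pdha1) and none rose (median -0.34, 23.5% called lower). Cs, the citrate synthase that opens the cycle, had 392, 291 and 299 CPM in wild-type libraries 1, 2 and 3, against 76.9, 85.6 and 108 CPM in knockout libraries 1, 2 and 3 (log2 fold change -1.86, SE 0.22, adjusted p 0.0012), and the call held with any 1 library left out (adjusted p 0.0020 to 0.0069). Among 13 genes of coenzyme Q synthesis 3 fell (Coq5, Coq9 and Coq6) and 1 rose (Coq8a), with a median of -0.42 and 23.1% called lower. Of 8 other chain proteins, Ndufab1, Cyc1 and Cycs included, none was called by edgeR, Gpd2 alone had an unadjusted p below 0.05 (1 gene, log2 fold change -0.63) and was the 1 gene called lower by DESeq2 (median of the 8 genes -0.57). Of 13 regulators of mitochondrial biogenesis 1 rose, Gabpb1, a subunit of GABP (log2 fold change 1.2, SE 0.31, adjusted p 0.024), and 1 fell, Polg, the mitochondrial DNA polymerase (-0.78, SE 0.17, adjusted p 0.013). The call of Gabpb1 was lost without knockout library 1 or 2 or wild-type library 1 or 2, and that of Polg held with any 1 library left out. So did those of Dmac1, Coq5 and Coq9, while each of the other calls in the lists of assembly factors, citrate cycle and coenzyme Q synthesis, apart from Cs, was lost without at least 1 library.

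Members were also set out by chromosome, and chromosomes 1, 15 and 16 were singled out because their genes as a whole were shifted. On chromosomes 1, 15 and 16, abundant genes as a whole (log2 CPM above 4) had median log2 fold changes of 0.23, 0.39 and 0.25, whereas on the other chromosomes together the median was -0.23. The 14 members tested on these chromosomes had a median of -0.11, none was called, and for none were the groups apart and lower in the knockout. The 69 members elsewhere had a median of -0.47, and 17.4% of them were called lower and 2.90% higher. The split of lower calls followed that of abundant genes, of which 4.77% were called lower on chromosomes 1, 15 and 16 and 19.0% elsewhere, while 28.0% and 13.1% were called higher. The medians of abundant genes were 0.27 and -0.23 in these sets, so the median member lay below the abundant genes in both. On chromosome 5, where abundant genes had a median of -0.44 and 30.1% of them were called lower, Cox6a1 and Atp5j2 fell among 3 members tested. On the X chromosome (abundant genes, -0.30) Ndufa1 fell, while Ndufb11 (-0.50, SE 0.17, adjusted p 0.063) and Cox7b were not called. Without the members on chromosomes 1, 5, 15, 16 and X, 9 were lower and 2 higher, and the median was -0.45.

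**Figure D4:**
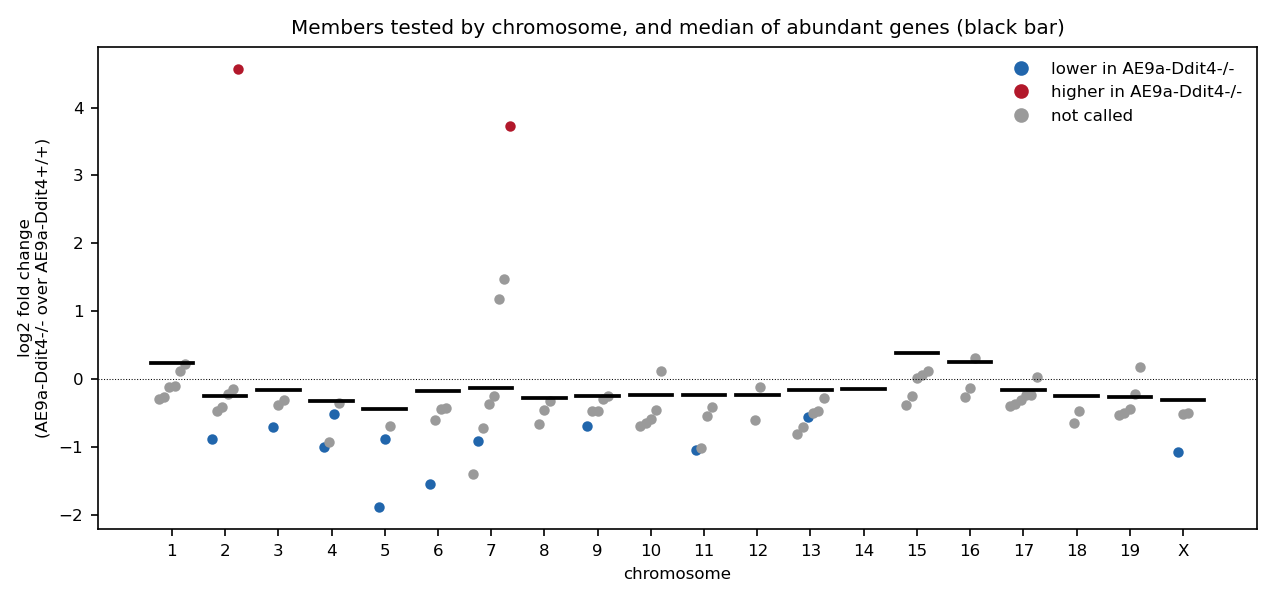
Log2 fold change (AE9a-Ddit4-/- over AE9a-Ddit4+/+, y axis) of the 83 members tested by chromosome (x axis), with calls in color. Black bars give the median of all genes above a log2 CPM of 4 on each chromosome, which lies above zero on chromosomes 1, 15 and 16 only. Chromosome 14 has no member.

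The libraries also differed in ways that moved with genotype. Total counts ran from 62141558 to 72717681. Y-linked Ddx3y had 88.2 to 125 CPM in knockout libraries and at most 0.0774 CPM in wild-type libraries, and Xist had 20.3 to 129 and 566 to 1032 CPM, so genotype and sex of the cells cannot be told apart. Over all genes tested, 10.7% were called lower and 19.4% higher. Among markers of other cell types, 13 of 14 erythroid genes fell (92.9%). Their summed level was 7761 to 16421 CPM in wild-type libraries and 381 to 980 CPM in knockout libraries. Of 12 neutrophil genes 5 fell (41.7%, sums of 7173 to 11874 and 1865 to 5179 CPM) and 7 were not called. Among the latter, Ctsg was higher in each knockout library (138 to 301 CPM) than in each wild-type library (31.6 to 135 CPM). Of the megakaryocyte and platelet genes, 8 of 10 tested rose and 1, Vwf, fell (102 to 169 and 2208 to 3061 CPM). Of the mast cell and basophil genes 4 of 7 rose (162 to 235 and 1023 to 1706 CPM), with Tpsb2 at 0 in wild-type libraries, and of the stroma and endothelium genes 6 of 9 rose (6.72 to 11.9 and 322 to 332 CPM), with Emcn at 0 in wild-type libraries. The monocyte list rose in 5 of 10 genes (172 to 352 and 248 to 659 CPM), the B cell list in 6 of 7 (1.05 to 4.91 and 64.6 to 128 CPM) and the T and NK cell list in 8 of 9 (10.8 to 48.4 and 84.8 to 115 CPM). Ms4a1, Trac, Ncr1 and Klrb1c were at 0 in wild-type libraries. Among wild-type libraries, the erythroid sum and the sum of the members followed the same order of libraries (1, 3, 2), while among knockout libraries library 1 had the highest erythroid sum and the lowest sum of members. The part of these markers in the results was not tested.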

How the data were processed

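Gene counts were available for 3 AE9a-Ddit4+/+ and 3 AE9a-Ddit4-/- libraries, grouped by the sample titles. The authors deposited counts per gene from paired Illumina NovaSeq reads, and the submitters' processing notes name GRCm38/mm10. Aligner, counting tool and strand use are not given in the sources used here, so reads shared with overlapping genes or processed copies could not be traced. The study's methods name a kit for rRNA-depleted RNA and the labels an mRNA kit, which bears on mitochondrially encoded transcripts. Low counts piled up at multiples of 4 (1.40 to 1.62 times more often at 4, 8 and 12 than at 2, 6 and 10), so the detection limit was set at 12 counts (0.163 to 0.198 CPM, counting error only).

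Genes were tested in R 4.3.3 with edgeR 4.0.16 (filterByExpr, TMM factors of 0.921 to 1.05, robust quasi-likelihood F-test, genotype as the only term), with Benjamini-Hochberg adjustment over 18375 genes. SE was taken as the size of the log2 fold change over the root of the F statistic. CPM used TMM-scaled totals, and levels per kilobase are CPM over merged exon length in GENCODE M21. DESeq2 1.42.0, other scalings and filters, counts divided by 4, a replicate block and omission of each library served as alternatives. The fits were tested on simulated data. The members and lists were chosen with earlier results of these data known. Genes were named by rule: per complex the 3 largest rises and falls called and the 2 most abundant per kilobase, isoform pairs, Sdh genes, X-linked members and Ddit4. Other genes given with values, such as Ndufa3, Ndufb5, Atp5l, Atp5o and genes of other lists, were chosen after their values were seen.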

Additional observations from a re-analysis of the deposited data

How the results depend on the processing

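The medians of all members (-0.55 to -0.27) and of complexes I to V kept their direction under each alternative tried. With 1 library left out, the medians ran from -0.52 to -0.24 in complex I, -0.47 to -0.13 in complex II, -0.61 to -0.29 in complex III, -0.39 to -0.079 in complex IV and -0.74 to -0.39 in complex V. The 2 members called higher were 1 with the replicate block, with a minimum of 10 counts in each library and at an adjusted p below 0.01. The 12 members called lower became 19 with DESeq2, 21 with library totals as the only scaling, 1 with the replicate block and 1 at an adjusted p below 0.01, and 2 to 16 with 1 library left out. Omission of a library also leaves fewer samples to estimate the spread, and for the other settings the cause was not tested. Over all genes, calls numbered 5535, and 2964 with the replicate block, 3915 with a minimum of 10 counts in each library, and 3840 to 6021 with 1 library left out. The log2 fold change of Atp5g2, 0.06 in the main comparison, turned to -0.0042 with library totals only, and ran from -0.16 to 0.25 with 1 library left out, below zero without AE9a-Ddit4-/- library 2 or 3 or AE9a-Ddit4+/+ library 2. The log2 fold change of Atp5g3, -0.14 in the main comparison, ran from -0.37 to 0.051 with 1 library left out, above zero without AE9a-Ddit4-/- library 1. The median over all genes moved from 0.04 to between -0.04 and 0.13, where the lowest value came with the minimum of 10 counts and the highest without AE9a-Ddit4+/+ library 2. Libraries with the same number in the 2 groups did not deviate together (correlations of -0.17, -0.19 and -0.05), so the numbers were not taken as pairs. Alternatives without processed pseudogenes and without chromosomes 1, 5, 15, 16 and X were chosen after the data were seen, and left 12 and 9 members lower. With 3 libraries a group, members at a few counts, such as Cox4i2 and Cox6a2, are measured least precisely.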
